A study of Homo sapiens with 18 samples.

Results

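The comparison described here was between PCGF6-KO clone 2 and PCGF6-KO clone 1, in 4 of the 6 RNA-seq libraries of a series of 18 samples. All genes of the count table were eligible, and the clone libraries were chosen by their labels alone. PGP1 is an established human induced pluripotent stem cell line, kept in these experiments as undifferentiated human PSCs in mTeSR1 on Matrigel. In both clones CRISPR-Cas9 had been aimed at the first exon of PCGF6, and both alleles carried a deletion whose size differed between the clones. Clone 1 (KO_1) and clone 2 (KO_2) gave 2 libraries each, and the unedited parent line (WT) gave 2 more, which served only to show which clone lay nearer to wild type. Each knockout genotype was thus 1 clone, so a difference between the genotypes and a difference between any 2 clones of the line cannot be told apart. Nothing in the labels states that the libraries of a genotype came from separate cultures, so each p-value measures only the spread between these libraries, which may be technical.

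PCGF6 is the subunit that defines the variant Polycomb repressive complex PRC1.6, in which the RING1 ubiquitin ligases place ubiquitin on histone H2A and the DNA-binding partners MAX with MGA, and E2F6 with its DP partner, bring the complex to its targets. In pluripotent cells the complex is known for holding germ cell and developmental genes silent. WNT, BMP, NODAL and FGF signals direct such cells into primitive streak, mesoderm, endoderm, amnion or neuroectoderm, and the transcription factors named below are the usual markers of these fates.

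Library totals lay between 15877396 and 18918609 counts. Replicate libraries differed by more than counting error in each genotype, with a chi-square per degree of freedom between 2.40 and 4.50 and a median fold between replicates of 1.08 to 1.10. Levels are given as CPM, the counts scaled to the TMM-corrected size of the library without a correction for gene length, so levels are compared between libraries and not between genes. Differences are the log2 of clone 2 over clone 1 with their standard error (SE), from the quasi-likelihood test of edgeR, adjusted by the Benjamini-Hochberg method over 17672 genes and written below as the edgeR adjusted p. A gene was called where that p was below 0.05 and the log2 difference exceeded 0.6 in either direction. Genes that overlap another annotated gene, among them POU5F1, SOX2, BMP6, TGFB1, ACTA2, IGF2 and most HOX genes, may include its reads, because whether the counting used strand is not stated. The data are bulk, so fewer cells of a type and less RNA per cell cannot be told apart.

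PCGF6 itself (chr10:103302796-103351144 in GRCh38, all gene positions being those of GENCODE 44) differed between the knockouts. It had 268 and 300 counts in WT, 99 and 103 counts in clone 1 and 187 and 159 counts in clone 2. These counts were 16.5 and 18 CPM in WT, 5.18 and 5.67 CPM in clone 1 and 10.3 and 9.91 CPM in clone 2. Both clones lay below WT in every library, and the clone 2 libraries lay above both clone 1 libraries (log2 difference 0.90, SE 0.145, edgeR adjusted p = 5.44e-05). Reads from the undeleted exons are counted too, so the level does not check the loss of the protein. The study checked the knockout by Western blot, genomic PCR and qRT-PCR.

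Between the clones 1390 of 17672 tested genes were called (7.87%), 659 of them higher in clone 2 (3.73%) and 731 lower (4.14%), with a median log2 difference of 0.01 over all tested genes. The split depended on the scaling, since library totals without TMM gave 547 genes higher and 948 lower in clone 2, with the median of all genes at −0.07. Of the 1390 genes, clone 1 lay nearer to WT in 1054 (75.8%), against 59.3% of all tested genes. The share was 82.4% among genes higher in clone 2 and 69.9% among genes lower in it. Against WT, 24.8% of genes were called in clone 1 (16% higher and 8.8% lower) and 29.4% in clone 2 (16.9% higher and 12.5% lower). Both clones were read against the same 2 WT libraries, so these shares are descriptive and carry no test.

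The called genes of 35 lists of lineage markers, signalling pathways and chromatin factors are described next, each list by its count of genes called and its median. The lists were chosen with earlier results of these data known. A count above the share of all genes is therefore descriptive and no independent support. That share was 3.73% called higher and 4.14% called lower in clone 2, and it applies to every list below. Mesoderm, endoderm, amnion, HOX and BMP lists held many genes that were higher in clone 2, with few or none lower. The neuroectoderm and hedgehog lists held 0 called genes among 18 and 13 tested, where 7.87% of all genes were called, and nothing is read from these counts about the lists. The WNT, Notch and retinoic acid lists had genes in both directions. In the plot of genes called by list, the cardiac and lateral mesoderm list and the BMP list reach farthest to the right, with 11 genes each.

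**Figure D1:**
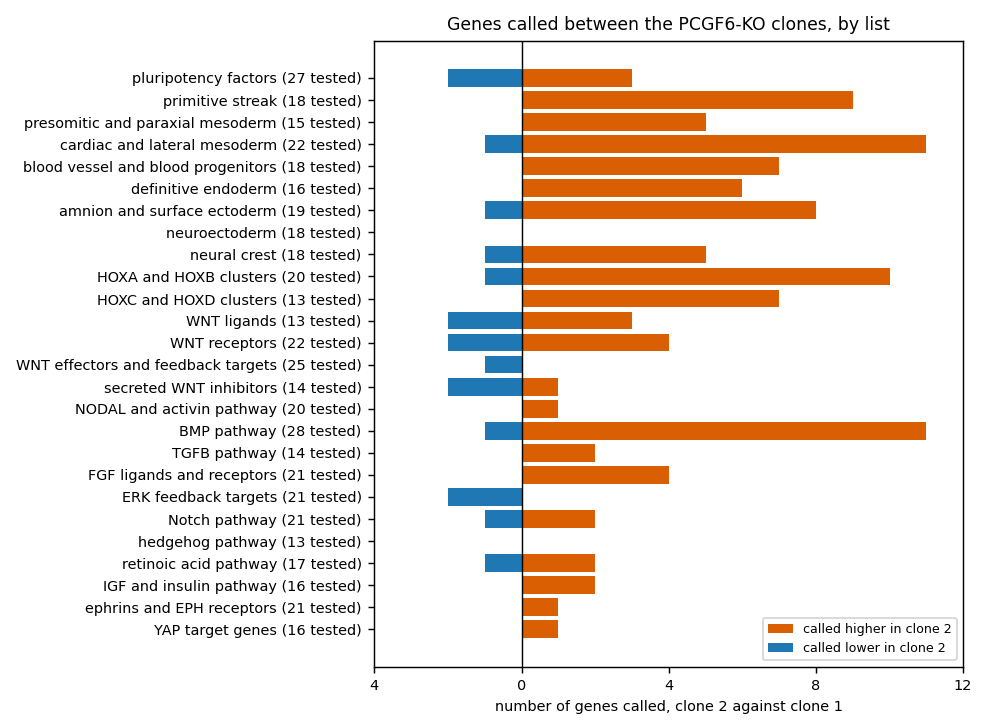
Number of genes called between the PCGF6-KO clones in 26 gene lists of lineages and signalling pathways, with the number of genes tested in brackets. Bars to the right (orange) count genes called higher in clone 2 and bars to the left (blue) genes called lower. The cardiac and BMP lists have 11 higher and 1 lower, while the neuroectoderm and hedgehog lists have none.

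The core pluripotency factors POU5F1 and NANOG were expressed in both clones, and neither passed the edgeR test between them. POU5F1, the OCT4 gene, was at 1492 and 1499 CPM in WT, 1625 and 1485 CPM in clone 1 and 1506 and 1416 CPM in clone 2 (log2 difference −0.09, SE 0.0525, edgeR adjusted p = 0.255). NANOG was at 168 and 189 CPM in clone 1 and 154 and 179.9 CPM in clone 2 (log2 difference −0.09, SE 0.0797, edgeR adjusted p = 0.459), and its ranges overlapped. LIN28A, SALL4, DPPA4 and TDGF1, further markers of pluripotent cells, were not called either, with log2 differences from −0.13 to 0.13. Of 27 tested pluripotency genes 3 were higher and 2 lower in clone 2, where 3.73% and 4.14% of all genes were. The median was 0.03. By the edgeR adjusted p alone 4 were higher and 6 lower. Over the list the members summed to 12470 and 12960 CPM in WT, 10990 and 11020 CPM in clone 1 and 10050 and 10350 CPM in clone 2.

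SOX2, a pluripotency factor that is also needed for neuroectoderm, was at 327 and 327 CPM in WT, 246 and 245 CPM in clone 1 and 153 and 166 CPM in clone 2. The 3 genotypes did not overlap, and clone 2 was the lowest (log2 difference −0.63, SE 0.0588, edgeR adjusted p = 1.33e-08). PRDM14, a repressor that guards naive pluripotency and the germline, had the same order, with 144 and 141 CPM in WT, 62.9 and 59.5 CPM in clone 1 and 37.2 and 40.5 CPM in clone 2 (log2 difference −0.66, SE 0.0753, edgeR adjusted p = 3.31e-07). Both differences lay close to the fold threshold, and without clone 2 replicate 1 neither was called (log2 differences −0.57 and −0.60). DPPA2, a factor of early embryonic chromatin, was higher in clone 2 at 41.9 and 41.6 CPM than in clone 1 at 17.6 and 15.5 or WT at 7.37 and 7.37 (log2 difference 1.33, SE 0.0978, edgeR adjusted p = 1.73e-10). KLF5 rose from 42.5 and 43.6 CPM in clone 1 to 70.3 and 75.5 in clone 2, with 4.48 and 4.08 in WT (log2 difference 0.76, SE 0.0822, edgeR adjusted p = 1.46e-07). TBX3, which is shared by naive pluripotency, mesoderm and amnion, showed the largest step of the list. It was at 0.123 and 0.12 CPM in WT, 19.1 and 19.8 CPM in clone 1 and 63.4 and 61.1 CPM in clone 2 (log2 difference 1.68, SE 0.0909, edgeR adjusted p = 5.70e-13). MYC, a partner of MAX, was at 236 and 217 CPM in clone 1 and 248 and 265 CPM in clone 2, a log2 difference of 0.18 under the fold threshold.

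Genes of the primitive streak, the structure through which mesoderm and endoderm form, were expressed in both clones, and 9 of 18 tested genes were higher in clone 2. None was lower, 3.73% of all genes were higher, and the median was 0.50. With library totals alone 7 were higher and 1 lower, and leaving out clone 2 replicate 2 also gave a lower call. Over the list the members summed to 165 and 159.7 CPM in WT, 1560 and 1500 CPM in clone 1 and 1934 and 1882 CPM in clone 2. TBXT, the brachyury gene (chr6:166157656-166168700), was at 0 and 0.719 CPM in WT, 184 and 169 CPM in clone 1 and 304 and 289 CPM in clone 2. The clones did not overlap (log2 difference 0.75, SE 0.0841, edgeR adjusted p = 2.33e-07), although DESeq2 gave 0.76 with an adjusted p of 0.842. CDX2, a posterior homeobox factor, went from 39.9 and 36.3 CPM in clone 1 to 81.7 and 72.9 in clone 2, with 0.0614 and 0.0599 in WT (log2 difference 1.02, SE 0.0866, edgeR adjusted p = 2.25e-09). Its paralogue CDX1 was at 10.9 and 7.65 CPM in clone 1 and 18.5 and 19.5 CPM in clone 2 and had 0 counts in both WT libraries (log2 difference 1.03, SE 0.145, edgeR adjusted p = 9.83e-06).

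APLNR, the apelin receptor of streak and early mesoderm cells, was at 0.614 and 0.599 CPM in WT, 59 and 57.9 CPM in clone 1 and 144 and 129.8 CPM in clone 2 (log2 difference 1.23, SE 0.0731, edgeR adjusted p = 3.75e-12). GATA6, a mesendoderm factor, rose in the same order from 8.79 and 7.81 CPM in clone 1 to 23.9 and 18.2 in clone 2 (log2 difference 1.35, SE 0.148, edgeR adjusted p = 1.78e-07). LHX1, WNT8A, EVX1 and SNAI1 were the other streak genes called, with log2 differences of 1.17, 0.77, 0.65 and 0.63. EVX1 (0.58) and SNAI1 (0.56) were no longer called with library totals alone, and SNAI1 also not without clone 1 replicate 2 (0.58). EOMES, the T-box factor of the anterior streak, went the other way. It was at 0.184 and 0.30 CPM in WT, 138 and 139 CPM in clone 1 and 89.1 and 103 CPM in clone 2. The clone 2 libraries lay below both clone 1 libraries, and the difference passed the edgeR test (log2 difference −0.53, SE 0.0719, edgeR adjusted p = 5.00e-06) but not the fold threshold. MIXL1 was at 289 and 303 CPM in clone 1 and 326 and 342 CPM in clone 2 (edgeR adjusted p = 0.0574).

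**Figure D2:**
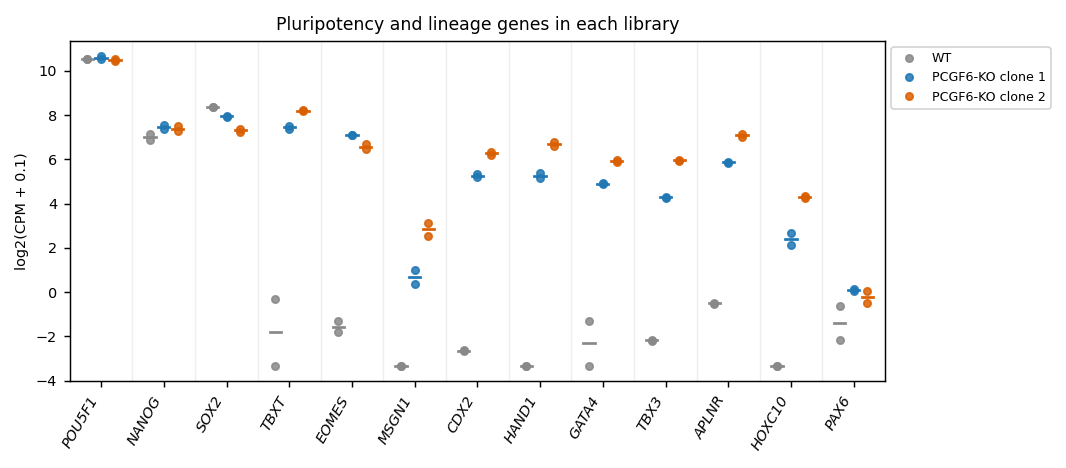
Level of pluripotency and lineage genes in each library, as log2(CPM + 0.1), with the mean of the replicates as a bar, where grey points are WT, blue points clone 1 and orange points clone 2. POU5F1 and NANOG overlap between the clones, SOX2 and EOMES are lower in clone 2, and TBXT, MSGN1, CDX2, HAND1, GATA4, TBX3, APLNR and HOXC10 are higher in clone 2 in both libraries.

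In presomitic and paraxial mesoderm, which forms the somites, 5 of 15 tested genes were higher in clone 2 and none lower. The median was 0.42, and 3.73% of all genes were higher. MSGN1, a presomitic factor (chr2:17816460-17817798), had 0 counts in both WT libraries, 37 and 22 in clone 1 and 155 and 93 in clone 2. These were 1.94 and 1.21 CPM in clone 1 and 8.55 and 5.8 CPM in clone 2, and the ranges did not overlap (log2 difference 2.19, SE 0.26, edgeR adjusted p = 8.34e-07). FOXC1 was at 3.03 and 2.64 CPM in clone 1 and 8.27 and 7.73 CPM in clone 2 (log2 difference 1.49, SE 0.194, edgeR adjusted p = 2.55e-06). FOXC2 and TBX6 differed by 1.05 and 0.94. PAX3, shared with the neural crest, differed by 0.63 and was not called without clone 1 replicate 1 (0.55), without clone 2 replicate 2 (0.54) or with library totals alone (0.55). Over the list the members summed to 22 and 22.4 CPM in WT, 58.2 and 62.5 CPM in clone 1 and 97.2 and 89.8 CPM in clone 2.

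The list of cardiac and lateral mesoderm genes had 11 of 22 tested genes higher in clone 2 and 1 lower. Its median was 0.91, while 3.73% of all genes were higher and 4.14% lower. With DESeq2 8 were called higher. HAND1, a factor of lateral plate and extraembryonic mesoderm (chr5:154474972-154478227), was not detected in WT (0 counts in both libraries). It was at 35.1 and 42.4 CPM in clone 1 and 111 and 98.2 CPM in clone 2, so that both clone 2 libraries lay above both clone 1 libraries (log2 difference 1.43, SE 0.0915, edgeR adjusted p = 2.34e-11). Against the limit that a count of 0 allows in WT, clone 1 was at least 213-fold and clone 2 at least 574-fold higher. GATA4, a cardiac and endoderm factor, went from 29.3 and 30.5 CPM in clone 1 to 63.2 and 59.5 in clone 2, with 5 and 0 counts in WT (log2 difference 1.04, SE 0.102, edgeR adjusted p = 2.70e-08). FOXF1, a lateral mesoderm factor, was at 0.994 and 1.38 CPM in clone 1 and 3.75 and 3.49 CPM in clone 2 and had 0 counts in WT (log2 difference 1.61, SE 0.296, edgeR adjusted p = 0.000277). ISL1 of the second heart field was at 2.72 and 3.8 CPM in clone 1 and 8.6 and 6.86 CPM in clone 2 (log2 difference 1.25, SE 0.206, edgeR adjusted p = 6.77e-05).

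PDGFRA and the atrial light chain gene MYL4 were called too, with log2 differences of 0.92 and 0.99. HAND2 (0.89) was not called without clone 1 replicate 1 (0.55), and BMP10 (1.55) not without either clone 1 library or clone 2 replicate 2 (1.17 to 1.59). TBX20 (1.51) was not called without clone 1 replicate 2 or either clone 2 library (1.24 to 1.62). MYOCD (0.60), at the fold threshold, was not called without clone 1 replicate 1 (0.54), clone 2 replicate 2 (0.48) or WT replicate 2 (0.59). MYOCD also lost its call with DESeq2 (0.61), a GC content offset (0.59), upper-quartile scaling (0.58) and library totals alone (0.53). A filter of 10 counts in every library (0.60) and the 4 knockout libraries alone (0.59) ended it too. NKX2-5 had 5 and 6 counts in clone 1 and 11 and 10 counts in clone 2, none in WT, and did not pass the edgeR test (adjusted p = 0.233). ACTN2, a sarcomere gene, was the member called lower in clone 2, at 4.71 and 6.16 CPM in clone 1 and 2.81 and 1.87 CPM in clone 2 (log2 difference −1.20, SE 0.233, edgeR adjusted p = 0.000469). Its clone 2 level was close to the 3.25 and 2.7 CPM of WT. The list as a whole summed to 56.5 and 53.3 CPM in WT, 1231 and 1198 CPM in clone 1 and 1860 and 1740 CPM in clone 2.

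Among 18 tested genes of blood vessels and blood progenitors 7 were higher in clone 2 and none lower. The median was 0.44, and 3.73% of all genes were higher. PLVAP, a protein of fenestrated endothelium, was at 0.368 and 0.0599 CPM in WT, 1.31 and 1.26 CPM in clone 1 and 8.6 and 6.11 CPM in clone 2 (log2 difference 2.52, SE 0.266, edgeR adjusted p = 9.98e-08). LMO2, a scaffold of blood progenitor transcription complexes, was at 1.57 and 1.21 CPM in clone 1 and 6.07 and 5.42 CPM in clone 2 (log2 difference 2.04, SE 0.262, edgeR adjusted p = 2.14e-06). GATA2 was at 5.33 and 5.17 CPM in clone 1 and 14 and 15.8 CPM in clone 2 (log2 difference 1.5, SE 0.149, edgeR adjusted p = 3.53e-08). Each of these clone 2 values lay above both clone 1 values. FLI1, ESAM and RUNX1 differed by 1.24, 1.21 and 0.96. PECAM1, with at most 28 counts in a library, lost its call when any 1 of the 4 clone libraries was left out (1.44 to 1.70). KDR, the VEGF receptor gene that dominates the summed level of the list, was at 472 and 494 CPM in clone 1 and 454 and 489 CPM in clone 2 and did not pass the edgeR test (adjusted p = 0.717). CD34 was at 1.52 and 1.21 CPM in clone 1 and 1.27 and 1.62 CPM in clone 2.

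Definitive endoderm genes gave 6 of 16 tested genes higher in clone 2 and none lower. The median was 0.43, and 3.73% of all genes were higher. CXCR4, the chemokine receptor used to sort endoderm, was at 1.29 and 1.2 CPM in WT, 9.99 and 11.1 CPM in clone 1 and 17.3 and 17.8 CPM in clone 2 (log2 difference 0.74, SE 0.124, edgeR adjusted p = 9.09e-05). AFP was at 2.62 and 3.41 CPM in clone 1 and 6.18 and 5.73 CPM in clone 2 (log2 difference 0.99, SE 0.204, edgeR adjusted p = 0.00088), where the clone 1 level was near the 2.58 and 2.94 CPM of WT. GATA3, CDX2 and PRDM1, which other lineages share, were called with log2 differences of 0.79, 1.02 and 0.74. The defining factors were less clear. SOX17 was at 2.46 and 1.81 CPM in clone 1 and 2.54 and 2.81 CPM in clone 2, with 0 counts in WT, and did not pass the edgeR test (adjusted p = 0.492). FOXA2 was at 0.43 and 0.30 CPM in WT, 0.732 and 1.21 CPM in clone 1 and 1.76 and 2.43 CPM in clone 2 (log2 difference 1.10, SE 0.361, edgeR adjusted p = 0.0315), but was not called without clone 1 replicate 1 (0.78), without clone 2 replicate 2 (0.86) or with DESeq2 (1.12).

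Of 19 tested genes of amnion and surface ectoderm 8 were higher in clone 2 and 1 lower. The median was 0.43, while 3.73% of all genes were higher and 4.14% lower. MSX2, a homeobox factor downstream of BMP, was at 0.491 and 0.659 CPM in WT, 31.3 and 30.9 CPM in clone 1 and 58.9 and 58.7 CPM in clone 2 (log2 difference 0.92, SE 0.0866, edgeR adjusted p = 1.40e-08). GRHL3, a surface ectoderm factor, was at 18.9 and 17.4 CPM in clone 1 and 34.1 and 30.5 CPM in clone 2 (log2 difference 0.83, SE 0.105, edgeR adjusted p = 1.55e-06). GATA2, ISL1, GATA3 and HEY1, counted above or in the Notch list, were among the others. TFAP2A, a defining factor of this lineage, was at 14.4 and 13 CPM in clone 1 and 16.2 and 16.9 CPM in clone 2 (edgeR adjusted p = 0.125). The keratin gene KRT7 was the member lower in clone 2 (−0.98), a call lost without clone 1 replicate 1 (−0.94), without clone 2 replicate 2 (−0.67) and with DESeq2 (−0.98). Only 4 of 17 trophoblast genes could be tested, and none was called by edgeR or DESeq2, with 2 at an unadjusted p under 0.05.

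No neuroectoderm gene was called among 18 tested by edgeR or by DESeq2, where 7.87% of all genes were called by edgeR, 6 had an unadjusted p under 0.05, and the median was −0.04. The genes called lower were 2 with library totals alone or without clone 1 replicate 1, and 1 with no filter on low counts or without clone 2 replicate 2 or WT replicate 2. PAX6, the neuroectoderm master regulator, had 2 and 9 counts in WT, 19 and 17 counts in clone 1 and 17 and 10 counts in clone 2 (log2 difference −0.29, SE 0.456, edgeR adjusted p = 0.725). SOX1 had at most 1 count in any library and was not tested. In the neural crest list 5 of 18 tested genes were higher in clone 2 and 1 lower, where 3.73% and 4.14% of all genes were. Without clone 2 replicate 2 fewer were called higher. TWIST1 was at 5.65 and 7.87 CPM in clone 1 and 14.1 and 14.2 CPM in clone 2 with 0 counts in WT (log2 difference 1.07, SE 0.158, edgeR adjusted p = 1.94e-05). SNAI2 was at 15 and 15.7 CPM in clone 1 and 25.6 and 24.7 CPM in clone 2 (log2 difference 0.71, SE 0.108, edgeR adjusted p = 2.18e-05). NGFR, the p75 neurotrophin receptor, was the member lower in clone 2, at 12.2 and 10.5 CPM in WT, 50.9 and 49.4 CPM in clone 1 and 24.8 and 22.9 CPM in clone 2 (log2 difference −1.07, SE 0.0941, edgeR adjusted p = 4.00e-09). SOX10 was at 6.43 and 4.79 CPM in clone 1 and 3.58 and 4.05 CPM in clone 2 (edgeR adjusted p = 0.0525). Of 19 tested neuronal genes 1 was called, where 7.87% of all genes were, and nothing is read from this count about the list. It was ELAVL4, an RNA-binding protein of neurons, at 4.6 and 5.28 CPM in clone 1 and 1.71 and 1.87 CPM in clone 2 (log2 difference −1.46, SE 0.239, edgeR adjusted p = 6.29e-05).

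Muscle and fibroblast genes split, with 3 of 14 tested genes higher and 2 lower in clone 2, where 3.73% and 4.14% of all genes were. ACTA2, the smooth muscle actin gene, was at 23.7 and 21.2 CPM in clone 1 and 49.2 and 46.1 CPM in clone 2 (log2 difference 1.09, SE 0.0984, edgeR adjusted p = 6.96e-09). COL3A1, a fibrillar collagen gene, was at 241 and 262 CPM in clone 1 and 439.9 and 429 CPM in clone 2 (log2 difference 0.79, SE 0.0648, edgeR adjusted p = 1.28e-09). POSTN differed by 0.97. DES, the desmin gene of muscle, was lower in clone 2, with 2.4 and 1.98 CPM in WT, 10.3 and 11 CPM in clone 1 and 4.8 and 3.68 CPM in clone 2 (log2 difference −1.32, SE 0.171, edgeR adjusted p = 2.39e-06). MYH11 was also lower (−0.90), a call lost without clone 1 replicate 2 (−0.68), without clone 2 replicate 2 (−0.73) and with DESeq2 (−0.90).

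The HOX genes, which set position along the body axis, were at or near 0 in WT and on in both clones. Of 20 tested HOXA and HOXB genes 10 were higher in clone 2 and 1 lower (median 0.75). Of 13 tested HOXC and HOXD genes 7 were higher and none lower (median 0.93), where 3.73% of all genes were higher and 4.14% lower. HOXC10 (chr12:53985065-53990279) showed a large step, from 6.38 and 4.29 CPM in clone 1 to 20.1 and 19.1 in clone 2, with 0 counts in WT (log2 difference 1.87, SE 0.158, edgeR adjusted p = 3.43e-09). HOXC6 was at 15.4 and 13.6 CPM in clone 1 and 29.4 and 28.9 CPM in clone 2 (log2 difference 1.01, SE 0.11, edgeR adjusted p = 2.23e-07). HOXD9 was at 2.88 and 3.85 CPM in clone 1 and 10.6 and 7.29 CPM in clone 2 (log2 difference 1.42, SE 0.211, edgeR adjusted p = 2.17e-05). HOXA9 and HOXB8 rose by 0.90 and 0.88 on the log2 scale. The exception was HOXB1, the most anterior gene of its cluster, at 30.0 and 24.5 CPM in clone 1 and 15.3 and 15.5 CPM in clone 2 (log2 difference −0.83, SE 0.12, edgeR adjusted p = 1.25e-05). HOXB2 did not pass the edgeR test (19.7 and 20.7 CPM in clone 1, 19 and 17.1 in clone 2, adjusted p = 0.364). Most of these genes had few counts, and their number fell with fewer libraries. Without clone 2 replicate 1 only 5 HOXA and HOXB genes and 4 HOXC and HOXD genes were called higher, and DESeq2 called 4 in each group. Many HOX genes overlap their neighbours or antisense RNAs, and since the strand setting of the counting is not given in the sources used here, their counts may be split or shared. Over the HOXA and HOXB genes the members summed to 0.737 and 0.24 CPM in WT, 239 and 249.9 CPM in clone 1 and 309 and 294 CPM in clone 2.

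The BMP pathway was the signalling list with the most called genes. Of 28 tested genes 11 were higher in clone 2 (3.73% of all genes were) and 1 lower, with a median of 0.48. Among the ligands, BMP2 (chr20:6767686-6780246) was at 3.56 and 3.9 CPM in WT, 28.8 and 28.5 CPM in clone 1 and 63.1 and 65 CPM in clone 2 (log2 difference 1.16, SE 0.0861, edgeR adjusted p = 2.24e-10). BMP6 was at 2.46 and 2.09 CPM in clone 1 and 4.85 and 5.86 CPM in clone 2 (log2 difference 1.23, SE 0.234, edgeR adjusted p = 0.000378). BMP4, the ligand used to induce mesoderm and amnion, was at 7.25 and 8.03 CPM in WT, 92.8 and 86.2 CPM in clone 1 and 143 and 133 CPM in clone 2, with no overlap (log2 difference 0.62, SE 0.0696, edgeR adjusted p = 2.25e-07). Its size was just over the threshold, so it was not called without clone 1 replicate 2 (0.57), without clone 2 replicate 1 (0.57), with upper-quartile scaling (0.60) or with library totals alone (0.55). The receptor gene BMPR1B was lower in clone 2 (−0.76), but lost its call without clone 1 replicate 1 (−0.58), without clone 2 replicate 1 (−0.42) and with DESeq2 (−0.74).

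Targets and inhibitors of the pathway were among the genes higher in clone 2. SMAD9, a signal transducer that also dampens the pathway, was at 1.29 and 0.839 CPM in WT, 2.56 and 2.92 CPM in clone 1 and 9.6 and 7.54 CPM in clone 2 (log2 difference 1.65, SE 0.204, edgeR adjusted p = 1.17e-06). ID4, a target gene encoding an inhibitor of helix-loop-helix factors, was at 26.9 and 35.6 CPM in clone 1 and 68.5 and 72.7 CPM in clone 2 (log2 difference 1.18, SE 0.108, edgeR adjusted p = 8.03e-09). Its relative ID1 was at 77.1 and 34.1 CPM in WT, 130.2 and 172 CPM in clone 1 and 279 and 272 CPM in clone 2. The WT libraries of ID1 differed from each other by more than the clone 2 libraries did. The clones did not overlap (log2 difference 0.87, SE 0.164, edgeR adjusted p = 0.000351), but DESeq2 did not call it (adjusted p = 0.275). ID2 and ID3 did not pass the edgeR test (adjusted p = 0.0971 and 0.284). SMAD6 and BAMBI, feedback inhibitors, differed by 0.94 and 0.75. BMPER, a secreted modulator, was at 4.45 and 5.89 CPM in clone 1 and 12.1 and 11.4 CPM in clone 2 (1.19). NOG was at 3.14 and 4.24 CPM in clone 1 and 5.02 and 4.92 CPM in clone 2 (edgeR adjusted p = 0.197). Over the pathway the members summed to 491 and 470.2 CPM in WT, 1301 and 1398 CPM in clone 1 and 1793 and 1768 CPM in clone 2.

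The promoter of SMAD9 is printed because it holds a match to both motifs that the DNA-binding partners of PCGF6 read, CACGTG for MAX and GCGGGAA for E2F6. It is the 250 bases before the gene start in RefSeq (GRCh38.p14, chr13:36920239-36920488, minus strand), written 5′ to 3′ on the strand of the gene with the motif matches in capitals.
SMAD9: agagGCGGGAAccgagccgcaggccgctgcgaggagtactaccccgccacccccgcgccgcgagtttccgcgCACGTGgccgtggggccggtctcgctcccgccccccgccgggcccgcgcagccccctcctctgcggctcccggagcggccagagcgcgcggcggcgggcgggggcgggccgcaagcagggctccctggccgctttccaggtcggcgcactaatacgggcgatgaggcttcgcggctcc
Both strands were searched, and CACGTG is its own reverse complement. CACGTG was in 6.5% of 27195 promoter windows of this length, 8.56% of those of tested genes, 6.6% of 409 windows of genes higher in clone 2 and 7.78% of 463 windows of genes lower in it. GCGGGAA was in 5.6%, 8.55%, 2.93% and 7.34%. Neither motif was more frequent among the genes that differed between the clones than among all tested genes, and a match says only that the letters are present.

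**Figure D3:**
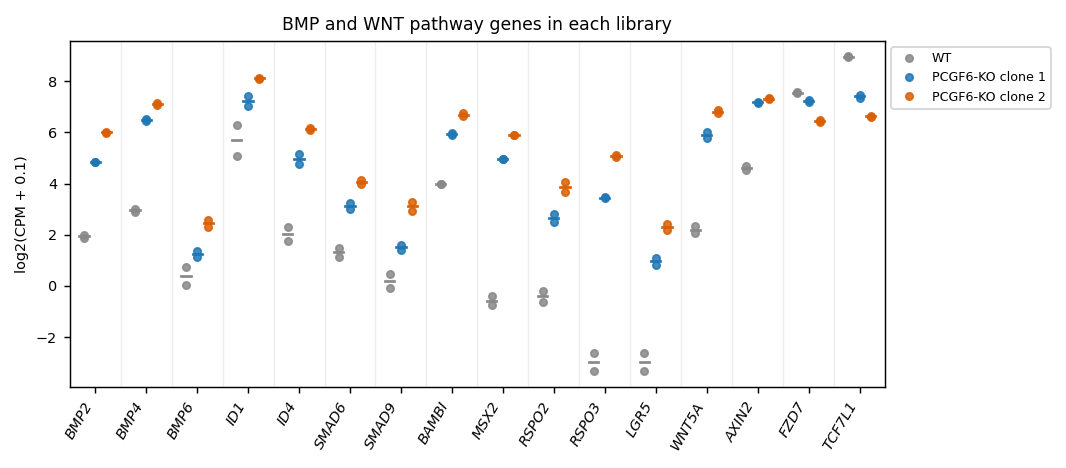
Level of 16 BMP and WNT pathway genes in each library, as log2(CPM + 0.1), with the mean of the replicates as a bar, where grey points are WT, blue points clone 1 and orange points clone 2. The BMP genes, RSPO2, RSPO3, LGR5 and WNT5A are higher in both clone 2 libraries, FZD7 and TCF7L1 are lower, and AXIN2 lies within 143 to 160.4 CPM in all 4 knockout libraries.

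WNT ligands were called in both directions by edgeR. Among 13 tested ligands 3 were higher and 2 lower in clone 2, where 3.73% and 4.14% of all genes were. With DESeq2 2 were higher and 0 lower. WNT5A, a ligand of the noncanonical branch, was at 4.05 and 4.91 CPM in WT, 55.2 and 65.2 CPM in clone 1 and 117 and 108 CPM in clone 2 (log2 difference 0.90, SE 0.0823, edgeR adjusted p = 7.81e-09). WNT8A, a streak ligand, was at 16.9 and 15.9 CPM in clone 1 and 28.9 and 27 CPM in clone 2 (log2 difference 0.77, SE 0.106, edgeR adjusted p = 5.98e-06). WNT16 (1.39) was not called without any 1 of the 6 libraries (1.12 to 1.65). WNT10B (−0.74) lost its call without clone 1 replicate 1 (−0.69) and clone 2 replicate 1 (−0.53), and WNT2B (−0.80) without clone 1 replicate 2 (−0.71) and either clone 2 library (−0.81 and −0.80). WNT11 was at 1.46 and 1.04 CPM in clone 1 and 1.82 and 2.12 CPM in clone 2 and did not pass the edgeR test (adjusted p = 0.211).

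Of 22 receptors and R-spondins 4 were higher and 2 lower in clone 2, where 3.73% and 4.14% of all genes were. RSPO3, an R-spondin that amplifies WNT signals (chr6:127118671-127199481), was at 0.0614 and 0 CPM in WT, 10.9 and 10.7 CPM in clone 1 and 34.5 and 32.7 CPM in clone 2 (log2 difference 1.63, SE 0.112, edgeR adjusted p = 5.36e-11). RSPO2 was at 6.96 and 5.5 CPM in clone 1 and 16.6 and 12.7 CPM in clone 2 (log2 difference 1.23, SE 0.162, edgeR adjusted p = 3.07e-06). LGR5, a receptor for R-spondins, was at 1.67 and 2.04 CPM in clone 1 and 5.24 and 4.42 CPM in clone 2 (log2 difference 1.38, SE 0.255, edgeR adjusted p = 0.000251). FZD10 differed by 0.73. FZD7, the main frizzled receptor of PSCs, went down from 190.3 and 185 CPM in WT to 144 and 153 in clone 1 and 88.7 and 85.5 in clone 2 (log2 difference −0.77, SE 0.0637, edgeR adjusted p = 1.49e-09). The R-spondin RSPO4 was lower too (−0.72), though not called without clone 2 replicate 2 (−0.57). FZD9 was at 2.09 and 1.65 CPM in clone 1 and 1.21 and 1.12 CPM in clone 2, in the same direction but without passing the edgeR test (adjusted p = 0.167).

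Of 25 WNT effectors and feedback targets 1 was called, where 7.87% of all genes were. TCF7L1, a repressor of WNT targets in pluripotent cells, was at 496 and 500 CPM in WT, 174 and 164 CPM in clone 1 and 99.5 and 98 CPM in clone 2 (log2 difference −0.78, SE 0.0601, edgeR adjusted p = 4.42e-10). The feedback target AXIN2 was at 25.5 and 23.2 CPM in WT, 143 and 145 CPM in clone 1 and 160.4 and 158 CPM in clone 2 (log2 difference 0.15, SE 0.0632, edgeR adjusted p = 0.106). SP5 did not pass the edgeR test either (−0.07, adjusted p = 0.541), while LEF1 passed it at a difference of 0.42, under the fold threshold. The 25 genes summed to 2549 and 2526 CPM in clone 1 and 2568 and 2569 CPM in clone 2. Of 14 tested genes of the secreted inhibitor list, which includes the co-receptor gene KREMEN2, 1 was higher and 2 lower. Among all genes 3.73% were higher and 4.14% lower. DKK2 was higher in clone 2 at 10.8 and 9.85 CPM against 5.7 and 5.67 in clone 1 (log2 difference 0.86, SE 0.176, edgeR adjusted p = 0.000828). KREMEN2, a DKK co-receptor, was lower at 5.24 and 4.67 CPM against 9.83 and 11.3 (log2 difference −1.09, SE 0.162, edgeR adjusted p = 1.89e-05). WIF1 was lower as well (−1.04), but its call was lost without clone 1 replicate 2 (−0.90), without clone 2 replicate 1 (−0.59) and with DESeq2 (−1.02). SFRP1, which was at 644 and 728 CPM in WT, was at 16.2 and 19.8 in clone 1 and 16.9 and 18.5 in clone 2.

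Of 20 tested genes of the NODAL and activin list 1 was called, where 7.87% of all genes were, INHBA, the subunit of activin A, at 3.87 and 4.4 CPM in clone 1 and 7.39 and 7.17 CPM in clone 2 (log2 difference 0.82, SE 0.182, edgeR adjusted p = 0.00192). DESeq2 did not call it (adjusted p = 0.0696). NODAL itself was at 17.5 and 16.6 CPM in WT, 209 and 196 CPM in clone 1 and 263 and 254 CPM in clone 2, a log2 difference of 0.35 under the fold threshold. Its inhibitor LEFTY2 was lower in clone 2 by less than the threshold (−0.41). Of 14 tested genes of the TGFB list 2 were higher and none lower, where 3.73% and 4.14% of all genes were. Nothing is read from this count about the list. TGFB1 and its target TGFBI were higher in clone 2, at 107 and 102 CPM against 65.5 and 67.5 for the ligand and 115 and 106 CPM against 63 and 62.2 for the target. Their log2 differences were 0.65 and 0.82, and TGFB1 was not called with library totals alone (0.58).

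Among 21 FGF ligands and receptors 4 ligands were higher in clone 2 and none of the list lower, and 2 were still called without clone 2 replicate 2 or with DESeq2. FGF18 was at 11.4 and 10.4 CPM in clone 1 and 19.3 and 21.2 CPM in clone 2 (log2 difference 0.89, SE 0.122, edgeR adjusted p = 5.72e-06). FGF4 differed by 0.69 (0.57 and not called without clone 2 replicate 2). FGF10 (0.81) was not called without clone 1 replicate 2 (0.57), nor FGF1 (0.81) without clone 1 replicate 1 (0.64) or clone 2 replicate 2 (0.54). DESeq2 called neither FGF10 (0.82) nor FGF1 (0.82). ERK feedback targets gave 2 of 21 genes lower in clone 2 and none higher, where 4.14% and 3.73% of all genes were. Nothing is read from this count about the list. The immediate early gene EGR2 was at 5.13 and 5.28 CPM in clone 1 and 1.6 and 1.99 CPM in clone 2 (log2 difference −1.54, SE 0.236, edgeR adjusted p = 2.78e-05). SPRED3, an inhibitor of the RAS pathway, was at 7.58 and 8.31 CPM in clone 1 and 4.03 and 4.3 CPM in clone 2 (log2 difference −0.93, SE 0.162, edgeR adjusted p = 0.000131). SPRED3 lies on chromosome 19, which is described below.

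Of 21 tested Notch genes 2 were higher and 1 lower in clone 2, where 3.73% and 4.14% of all genes were. HEY1 and HEY2, target repressors, were higher (0.97 and 0.70) and HEYL lower. HEYL was at 7.25 and 8.57 CPM in WT, 4.5 and 4.24 CPM in clone 1 and 1.54 and 1.68 CPM in clone 2 (log2 difference −1.44, SE 0.233, edgeR adjusted p = 5.59e-05). HEY2 was not called without clone 2 replicate 1 (0.51). Retinoic acid genes gave 2 of 17 higher and 1 lower, beside the same shares of all genes. Nothing is read from the Notch and retinoic acid counts about these lists. ALDH1A2, the synthesising enzyme, was at 3.71 and 4.07 CPM in clone 1 and 7.94 and 7.29 CPM in clone 2 (log2 difference 0.97, SE 0.185, edgeR adjusted p = 0.000385). The receptor gene RARB was higher (1.21, not called without clone 1 replicate 2 at 0.90, without clone 2 replicate 1 at 1.07 or with DESeq2 at 1.22), and the binding protein gene CRABP1 lower (−0.71). The 13 tested hedgehog genes gave no call by edgeR or DESeq2, with 6 at an unadjusted p under 0.05. EFNA1 was the 1 of 21 ephrin and EPH genes called (0.63), where 7.87% of all genes were. Its call was lost without clone 1 replicate 2 (0.48), without clone 2 replicate 1 (0.50) and with DESeq2 (0.63). AMOT was the 1 of 16 YAP targets called (0.71), beside the same 7.87% of all genes.

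Of 16 tested genes of the IGF and insulin list 2 were higher in clone 2, and of 21 tested imprinted genes 3, with none lower in either. The shares of all genes were 3.73% higher and 4.14% lower, and nothing is read from these counts about the lists. IGF2, a growth factor that is imprinted in most tissues, was at 0.676 and 1.2 CPM in WT, 84 and 89.6 CPM in clone 1 and 191 and 201 CPM in clone 2, without overlap (log2 difference 1.17, SE 0.070, edgeR adjusted p = 3.75e-12). Its neighbour H19, a long noncoding RNA, was uneven between replicates, at 6.17 and 44.1 CPM in clone 1 and 14.4 and 164 CPM in clone 2. The clones overlapped at H19 (log2 difference 1.82, SE 0.577, edgeR adjusted p = 0.0259), and without clone 2 replicate 2 the direction turned (−0.80), it was not called without clone 1 replicate 1 (1.00), and it reached 3.84 without clone 1 replicate 2, so that the clones cannot be ordered. NNAT, another imprinted gene, stood out by its relation to WT. It was at 54.6 and 53 CPM in WT, 28.7 and 28.2 CPM in clone 1 and 57.9 and 51.7 CPM in clone 2, so that clone 1 alone was low (log2 difference 0.95, SE 0.0862, edgeR adjusted p = 7.43e-09).

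Of the subunits of PRC1.6 only PCGF6 was called among 16 tested (median 0.01), where 7.87% of all genes were called. None of 32 other PRC1 and PRC2 genes was called by edgeR or DESeq2, although 15 had an unadjusted p under 0.05. Nothing is read from these counts about the lists. Germ cell genes, which PRC1.6 is known to silence, gave 3 of 12 tested genes higher and 2 lower in clone 2 (1 higher with DESeq2 or without clone 2 replicate 2). PRDM1, also an endoderm gene, was at 8.37 and 8.97 CPM in clone 1 and 14.1 and 14.8 CPM in clone 2 (log2 difference 0.74, SE 0.137, edgeR adjusted p = 0.000279). MEIOC, a meiosis gene, was lower at 2.43 and 1.99 CPM against 5.44 and 6.11 (log2 difference −1.37, SE 0.213, edgeR adjusted p = 3.15e-05). PIWIL2 (1.10) and TDRD1 (1.69) of the piRNA pathway were not called without clone 2 replicate 2 (0.84 and 1.61), nor TDRD1 without clone 1 replicate 1 (1.34). DESeq2 did not call PIWIL2 (1.12) and gave TDRD1 no adjusted p. SYCP2 (−1.08) was not called without clone 1 replicate 2 (−0.94), without clone 2 replicate 1 (−0.96) or with DESeq2 (−1.08). Interferon genes gave 3 of 17 lower and 1 higher, where 4.14% and 3.73% of all genes were. BST2 (tetherin) was at 18.2 and 14.3 CPM in WT, 6.22 and 5.45 CPM in clone 1 and 2.21 and 1.62 CPM in clone 2 (log2 difference −1.60, SE 0.221, edgeR adjusted p = 6.79e-06). Like SPRED3, BST2 lies on chromosome 19, which is described below. ISG15 (−0.64), IFI6 (−1.69) and IFIT2 (0.97) each lost their call without clone 1 replicate 2 (−0.58, −0.91 and 0.93). IFI6 also lost it without clone 2 replicate 2 (−1.22), and IFIT2 without any 1 of the 4 clone libraries (0.93 to 1.01). DESeq2 called neither IFI6 (−1.72) nor IFIT2 (0.98). Of 19 p53 targets only TNFRSF10B was called (−0.91), where 7.87% of all genes were called.

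Of the genes the study names for neural differentiation, SYT11, a synaptotagmin, was nearer to WT in clone 2. It was at 37.3 and 36.4 CPM in WT, 5.49 and 5.56 CPM in clone 1 and 16.2 and 19 CPM in clone 2 (log2 difference 1.67, SE 0.129, edgeR adjusted p = 4.42e-10). NLGN3, a neuroligin, was at 36.8 and 39.9 CPM in WT, 9.41 and 8.64 CPM in clone 1 and 6.4 and 7.42 CPM in clone 2 (log2 difference −0.39, SE 0.139, edgeR adjusted p = 0.0481), a difference under the fold threshold.

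The largest differences between the clones were not in lineage genes. Several genes were expressed in WT and clone 2 and nearly silent in clone 1. PABPC4L (chr4:134196333-134201789) had 129 and 127 counts in WT, 1 and 2 counts in clone 1 and 479 and 455 counts in clone 2, a count ratio of 340-fold (counting interval 116 to 1650), where the exact 95% interval covers counting error only. VPS37B, a subunit of the ESCRT-I sorting complex (chr12:122865330-122896127), had 79 and 81 counts in WT, 2 and 6 counts in clone 1 and 619 and 588 counts in clone 2 (log2 difference 7.32, SE 0.226, edgeR adjusted p = 3.20e-18). ALKBH3, a DNA and RNA demethylase (chr11:43880811-43920274), had 2 and 1 counts in clone 1 and 124 and 109 counts in clone 2, a ratio of 84.8-fold (counting interval 28.6 to 414). In these genes clone 1 lay below WT and clone 2 above it. TCEAL5 had 4 and 2 counts in clone 1 and 116 and 86 counts in clone 2 (log2 difference 5.14). CCDC125 had 4 and 1 counts in clone 1 and 84 and 71 counts in clone 2 (log2 difference 5.01). Clone 2 was called neither higher nor lower than WT in CCDC125, and lower in TCEAL5 (−0.70).

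The promoter of VPS37B is shown as that of a gene that was nearly off in 1 clone only. It lies before the gene start in RefSeq (GRCh38.p14, chr12:122896125-122896374, minus strand) and held 1 CACGTG, in capitals, and no GCGGGAA.
VPS37B: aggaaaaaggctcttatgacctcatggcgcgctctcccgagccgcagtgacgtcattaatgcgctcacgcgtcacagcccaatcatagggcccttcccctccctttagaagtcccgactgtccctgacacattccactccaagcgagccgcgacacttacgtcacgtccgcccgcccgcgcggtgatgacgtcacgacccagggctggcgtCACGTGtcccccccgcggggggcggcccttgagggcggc
CSRP1, a LIM-domain protein of smooth muscle and cytoskeleton, differed at high expression. It was at 15.7 and 17.9 CPM in WT, 6.75 and 8.75 CPM in clone 1 and 182 and 170.3 CPM in clone 2 (log2 difference 4.51, SE 0.102, edgeR adjusted p = 3.92e-21). MNS1, ZNF350 and ZMAT1 completed the 10 genes with the largest increases, with log2 differences of 4.06, 3.96 and 3.09. PCDHGC3, a clustered protocadherin, differed by 5.57. It shares its constant exons with the other gamma protocadherins, and how the counting assigned those reads is not given in the sources used here, so its level is uncertain. ALKBH3, CSRP1 and MNS1 overlap other annotated genes.

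**Figure D4:**
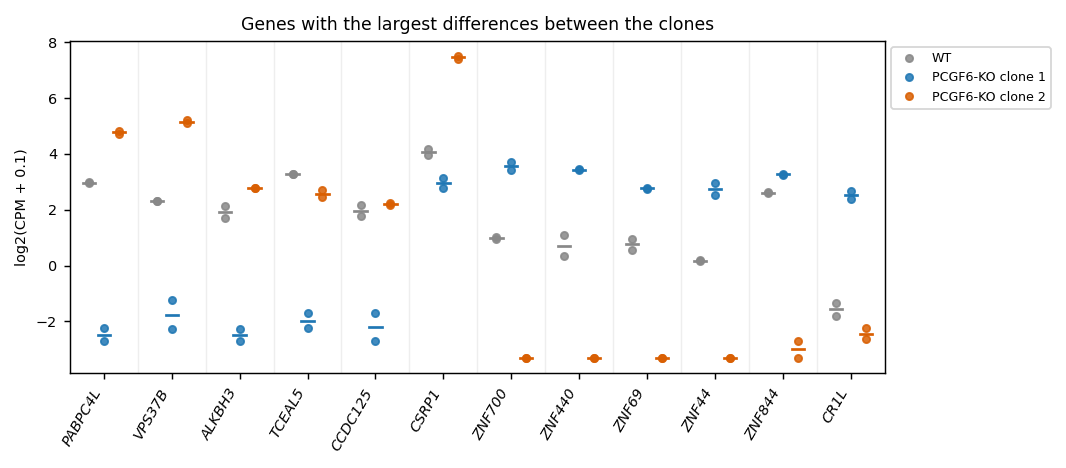
Level of 12 of the genes that differed most between the clones in each library, as log2(CPM + 0.1), with the mean of the replicates as a bar, where grey points are WT, blue points clone 1 and orange points clone 2. Clone 1 is near the bottom of the axis for PABPC4L, VPS37B, ALKBH3, TCEAL5 and CCDC125, and clone 2 for the ZNF genes, which had 0 or 1 count in each clone 2 library.

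At the other end, zinc finger genes of chromosome 19 had few or no counts in clone 2. ZNF700 (chr19:11925068-11950773) had 30 and 32 counts in WT, 250 and 191 counts in clone 1 and 0 in both clone 2 libraries. Against the limit of 3 counts per library, clone 2 was at least 66.9-fold lower than clone 1. ZNF440 (chr19:11814273-11835216) had 19 and 34 counts in WT, 202 and 196 counts in clone 1 and 0 in clone 2, at least 60.6-fold lower. ZNF69 and ZNF44, likewise at 0 in clone 2, were at least 38.1-fold and 37.9-fold lower. In all 4 genes clone 1 lay above WT and clone 2 below it. ZNF844 had 97 and 101 counts in WT, 181 and 175 counts in clone 1 and 1 and 0 counts in clone 2, a ratio of 326-fold (counting interval 58.2 to 12900). ZNF823 kept 2 and 2 counts in clone 2 against 163 and 135 in clone 1.

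These genes are neighbours. From ZNF823 to ZNF443, with gene starts between 11721265 and 12429706 on chromosome 19 of GRCh38, 17 genes named ZNF were tested, 16 were called lower in clone 2, and 11 had 0 counts in both clone 2 libraries. This stretch was chosen after its values were seen. ZNF788P had 246 and 239 counts in WT, 253 and 291 counts in clone 1 and 0 in clone 2. ZNF136, within the same stretch, was reduced but not silent, with 178 and 157 counts in clone 1 and 82 and 93 counts in clone 2. ZNF625, with at most 15 counts in a library, was not called. The zinc finger genes resemble each other, and the handling of reads that map to several of them is not given in the sources used here.

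The promoters of ZNF700 and ZNF440 are printed because both genes were expressed in clone 1 and had 0 counts in clone 2. They are the 250 bases before the gene starts in RefSeq (GRCh38.p14, chr19:11924857-11925106, plus strand, and chr19:11814023-11814272, plus strand). Capitals mark the runs of 12 or more bases that both hold.
ZNF700: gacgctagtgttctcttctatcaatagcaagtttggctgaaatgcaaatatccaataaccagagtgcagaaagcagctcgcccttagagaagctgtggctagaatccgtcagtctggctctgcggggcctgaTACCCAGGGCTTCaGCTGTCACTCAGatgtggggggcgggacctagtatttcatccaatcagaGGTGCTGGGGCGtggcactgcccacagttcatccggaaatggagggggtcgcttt
ZNF440: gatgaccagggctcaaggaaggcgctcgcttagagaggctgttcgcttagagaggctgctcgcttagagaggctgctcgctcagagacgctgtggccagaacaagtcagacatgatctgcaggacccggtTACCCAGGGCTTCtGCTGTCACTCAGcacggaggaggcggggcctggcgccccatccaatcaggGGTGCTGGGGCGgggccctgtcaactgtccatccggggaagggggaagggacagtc
The shared runs covered 37 bases in each, the longest had 13 bases, and 175 bases were identical in an alignment of the windows. Neither window held CACGTG or GCGGGAA.

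The rest of the lowest genes lay elsewhere or stood alone. ZNF717 on chromosome 3 had 88 and 73 counts in clone 1 and 0 and 1 counts in clone 2, a ratio of 148-fold (counting interval 26.1 to 5860), and it has near-identical copies in the genome, so its level is uncertain. CYP4F22 of chromosome 19, an enzyme of skin lipid synthesis, had 86 and 110 counts in WT, 25 and 24 counts in clone 1 and 0 and 1 counts in clone 2. CR1L, a complement receptor relative on chromosome 1, was highest in clone 1, with 3 and 5 counts in WT, 97 and 113 counts in clone 1 and 2 and 1 counts in clone 2, a ratio of 64.1-fold (counting interval 21.6 to 314). BOLA2B, which has a near-identical copy, rested on 1 library. It had 239 and 15 counts in clone 1, and without clone 1 replicate 1 its log2 difference moved from −4.36 to −1.34 and was not called.

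Chromosome 19 as a whole held a larger share of genes lower in clone 2 than the rest. Of its 1101 tested genes 131 were lower (11.9%) and 15 higher, against 3.69% lower among the positioned genes of the other chromosomes. Chromosome 16 leaned the same way, with 52 of 696 tested genes lower (7.47%) and 12 higher (1.72%), and the other chromosomes had 2.17% to 5.05% lower. Of the 131 genes 24 were named ZNF and 107 were not, and 106 were also called lower than WT in clone 2. Clone 2 lay nearer to WT in 18 of them. The share was 11.4% with a GC content offset against 3.77% elsewhere, 8.45% with DESeq2 against 1.97%, and 9.81% to 12.1% when any 1 library was left out.

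The share was highest among genes of low expression. Genes were divided into 3 equal classes by mean CPM. In the lowest class (up to 7.35 CPM) 75 of 372 chromosome 19 genes were lower in clone 2 (20.2%, against 6.85% elsewhere), and the median log2 difference was −0.32. In the middle class 48 of 380 were lower (12.6%, against 3.46%) with a median of −0.11. In the highest class, above 40.8 CPM, 8 of 349 were lower (2.29%, against 0.768%) with a median of 0.01. In the plot of chromosome 19 the deepest points sit at the ZNF700 stretch, while genes lower by a smaller amount are spread on both sides of the gap around the centromere. Without chromosome 19 the comparison gave 644 genes higher and 600 lower in clone 2.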

How the data were processed

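RNA-seq of WT PGP1 cells and of 2 PCGF6-KO clones was used, with 2 libraries each, and grouped by their titles. ChIP-seq was not used here. The authors trimmed the reads with Trim Galore 0.6.2, mapped them to GRCh38 with HISAT2 2.1.0, ran featureCounts and deposited raw counts per gene (57133 genes). Not given in the sources used here are the annotation release, whether the counting used strand, and how reads mapping to several places were treated. Depth ran from 15877396 to 18918609 counts, intervals and limits of count ratios cover counting error only, and a count of 0 was set to a limit of 3 counts per library.

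In edgeR 4.0.16 (limma 3.58.1, R 4.3.3), filterByExpr kept 17672 genes, TMM scaled the libraries, and glmQLFit and glmQLFTest with 3 groups gave clone 2 against clone 1 and each clone against WT, with Benjamini-Hochberg adjustment over all tested genes. Thresholds were those of the study's methods. The SE is the log2 difference divided by the root of the F statistic. The spread of each gene was estimated over the 3 groups together. The common biological coefficient of variation, a summary over all genes and not the spread used for each test, was 0.052. The members and the 35 gene lists were chosen with earlier results of these data known. Genes named were PCGF6, called genes of the lists (the rule gave at most the 4 largest of a list with every library's value), the 10 highest and 10 lowest called protein-coding genes whose log2 CPM averaged 1 or more, and genes the study names. Further list genes with values, list genes that were not called, the chromosome 19 stretch and genes at 0 in a clone were chosen after their values were seen. Some list members are not reported here by name, though they stay in the counts of their lists.

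Alternatives were DESeq2 1.42.0, RLE, upper-quartile and total-count scaling, other filters and thresholds, a GC content offset, the replicate number as a block, only the 4 knockout libraries and leaving out each library. Protein-coding genes only and a comparison without chromosome 19 were added after the data were seen. Deviations between replicates were weakly correlated over 15104 genes, at 0.024 for WT and clone 1, 0.04 for WT and clone 2 and 0.131 for the clones. The main fit therefore did not pair libraries by replicate number, and the block served as an alternative. Positions were from GENCODE 44 for 36219 genes matched by symbol and 873 by an older symbol, with 20041 not matched. Promoters were from RefSeq. On simulated data for clone 2 against clone 1, edgeR called 98 of 100 genes changed 2-fold, 100 of 100 changed 4-fold and 2 of the others among 17688 genes. DESeq2 called 92 and 100 of them and 0 of the others. The changed genes were drawn from those whose log2 CPM averaged over 1, and every gene had the same dispersion. The simulation thus does not cover genes of low expression or of uneven spread. Figures were drawn with matplotlib 3.10.9.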

Additional observations from a re-analysis of the deposited data

Results flagged for a closer look

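Among the 10 highest and 10 lowest called protein-coding genes whose log2 CPM averaged 1 or more, 13 had opposite calls against WT. Both clones were read against the same WT libraries. The genes were chosen by the size of their clone 2 against clone 1 difference, so the test of that difference gives no independent support. Clone 2 lay above WT and clone 1 below it in PABPC4L (log2 difference between the clones 8.29), VPS37B (7.32), ALKBH3 (6.28), PCDHGC3 (5.57), CSRP1 (4.51), ZNF350 (3.96) and ZMAT1 (3.09). Clone 1 lay above WT and clone 2 below it in ZNF700 (−10.68), ZNF440 (−10.54), ZNF69 (−9.87), ZNF44 (−9.86), ZNF844 (−8.03) and ZNF823 (−6.01). The fitted values of the first 4 zinc finger genes, which had 0 counts in clone 2, depend on the prior count of the fit and are no measured size.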

How the results depend on the processing

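The count of 1390 genes (659 higher and 731 lower in clone 2) fell to 804 with DESeq2 (402 higher and 402 lower, 797 of them shared with edgeR). A filter of 10 counts in every library left 1014 genes, 382 of them higher. The adjusted p alone gave 3442 genes (1883 higher and 1559 lower), a log2 difference over 1 gave 672 (330 and 342), and a test against a 1.5-fold change gave 403 (212 and 191). PCGF6, at 0.90, was uncalled under the last 2 of these thresholds (adjusted p = 0.157 against a 1.5-fold change with edgeR). Leaving out 1 library at a time gave 1158 to 1419 genes, 553 to 665 higher and 587 to 767 lower, and a PCGF6 difference of 0.84 to 0.97. With the replicate block 1484 genes were called (689 higher and 795 lower, 1388 shared with the fit without it), and it ended the call of 0 of 150 named genes. H19 ran from −0.80 without clone 2 replicate 2 to 3.84 without clone 1 replicate 2. RLE, upper-quartile and total-count scaling, no filter, the 4 knockout libraries alone, the GC content offset, protein-coding genes only and leaving out chromosome 19 kept the count of genes within 1.5 times of 1390 (1176 to 1517). Of 150 named genes 44 were tested and called under every scaling, filter, tool and left-out library, and 57 more were called wherever they were tested. The filter of 10 counts in every library left 87 untested, by its construction those with few counts in 1 of the groups, so that the cardiac and lateral mesoderm genes called higher went from 11 to 2 and those of HOXA and HOXB from 10 to 0. DESeq2 gave 7 no adjusted p and did not call 29 others, the GC content offset ended 2 calls, and the cause was not tested. With the replicate block 1 neuroectoderm gene was called lower. In the HOX, germ cell, cardiac and WNT ligand lists 1 library decided several calls.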
